A study of Mus musculus with 6 samples.

Results

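The 10 genes described here encode the AP-1 transcription factors of the FOS subfamily (*Fos*, *Fosb*, *Fosl1* and *Fosl2*), those of the JUN subfamily (*Jun*, *Junb* and *Jund*), and the related factors *Atf3*, *Batf3* and *Jdp2*. They were selected by gene symbol, with earlier results of these data known, and all 10 of them were found among the 34745 genes listed in the deposited expression table. The question was how their transcripts differed between cardiac fibroblasts of KDM5B-KO mice and those of littermate WT mice on Day 7 after myocardial infarction (MI), when scar tissue replaces the infarcted muscle. KDM5B is a demethylase that removes methyl groups from lysine 4 of histone H3, a mark of active promoters. Mice described in the methods as male, 8 to 10 weeks old, underwent permanent ligation of the left anterior descending artery in both groups, cells were taken from the left ventricle, and RNA-seq was performed on 3 libraries labelled KO and 3 labelled WT. The knockout was made with CRISPR/Cas9 by deleting the part of *Kdm5b* that encodes the catalytic JmjC domain, in the whole animal rather than in fibroblasts alone. The labels do not say whether each library came from a separate mouse, so that the p-values measure the spread between libraries only.

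AP-1 is a dimer of basic leucine zipper proteins. FOS proteins do not form stable dimers with each other and bind DNA together with a JUN protein, at the sequence TGAGTCA or at the related cAMP response element TGACGTCA. Transcription of many of these genes is induced within minutes by serum, growth factors, stretch or stress through MAP kinases, and the family is known in the injured heart for its part in the activation of fibroblasts. ATF3 is a stress-induced member of the ATF/CREB family that dimerizes with JUN proteins and often acts as a repressor, BATF3 and JDP2 have no classical transactivation domain, and JDP2 is a repressor of JUN-dependent transcription.

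Counts on genes totalled 12025403 to 15329427 per library (medians of 13265091 for KO and 14432380 for WT). *Kdm5b*, read first to check the labels, had 98.1, 107 and 105 CPM (counts scaled to a common library total, normalized with TMM) in KO-1, KO-2 and KO-3 and 108, 129 and 123 in WT-1, WT-2 and WT-3. Its log2 fold change was -0.22 (SE 0.07). The quasi-likelihood test of edgeR, with Benjamini-Hochberg adjustment over the 14084 genes tested, gave an adjusted p of 0.0574. *Kdm5b* passed as lower with the replicate number as a block, with upper quartile scaling and without WT-1 (adjusted p = 0.0271, 0.0324 and 0.0188 from edgeR), and after scaling by the median ratio of macrophage and cardiomyocyte markers (marker scaling) its log2 fold change was 0.17 (adjusted p = 0.0997 from edgeR). The deletion takes out only part of the gene and counts were made over all of it, so the count of this gene is a limited check, and both groups are called by their labels here. The defining markers of fibroblasts were high in every library, with 14 genes summing to 27050 to 31530 CPM in the KO-labelled and 37820 to 40250 CPM in the WT-labelled libraries. Of these fibroblast genes, 12 were called lower and 0 higher, with a median log2 fold change of -0.41 (0 lower and -0.02 with marker scaling). The endothelial list of 14 genes summed to 2287, 1595 and 1876 CPM in KO-1, KO-2 and KO-3 against 296 to 306 CPM in the WT-labelled libraries. Of those 14 genes, 13 were called higher, where 17.7% of all genes were called higher and 12.5% lower, and none was at 0 in all libraries. The macrophage list of 12 genes summed to 1287 to 1328 against 1603 to 1678 CPM, although 2 of its genes, *Cd68* and *Mertk*, named after their values were seen, were called higher, and 6 were called lower. With marker scaling 2 were higher and 0 lower. That scaling is set by the macrophage and cardiomyocyte markers themselves, so their medians lie near 0 by construction and the loss of lower calls is no check. The cardiomyocyte list of 12 genes summed to 805 to 905 against 1135 to 1144 CPM, and of 11 tested 8 were called lower and 0 higher. *Xist* (90.5 to 131 CPM) and *Ddx3y* (64.5 to 90.8 CPM), transcribed in female and in male cells respectively, were both counted in every library, which is at odds with libraries of male cells alone. In bulk RNA, fewer cells of a type and less RNA per cell cannot be told apart.

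Of the 10 genes, 5 were higher in the KO-labelled libraries, namely *Atf3*, *Fosl1*, *Fosb*, *Batf3* and *Jun*, where 17.7% of all genes tested were called higher. *Junb* and *Fosl2* were slightly lower, where 12.5% of all genes were called lower, and *Fos*, *Jund* and *Jdp2* did not pass the test. In either direction 7 of 10 were called, against 30.2% of all genes. With marker scaling 9 of the 10 were higher, *Junb* and *Fosl2* among them, and 0 were lower, where 8374 of all 14084 genes were higher. The median log2 fold change of the 10 genes was 0.36, compared with -0.02 over all genes tested. It was 0.18 without KO-1 and 0.74 with marker scaling, where that of all genes was 0.37. In CPM the libraries of the 2 labels did not overlap for 8 of the 10 genes, with 5 higher and 3 lower. Of all genes 47.0% did not overlap, 24.7% higher and 22.4% lower. All 10 genes passed the expression filter, *Batf3* only through the KO-labelled libraries, where it was high. Permuting the library labels, exact and two-sided, gave p = 0.1 for each of the 8 genes without overlap, which is the smallest p that 3 libraries against 3 allow.

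**Figure D1:**
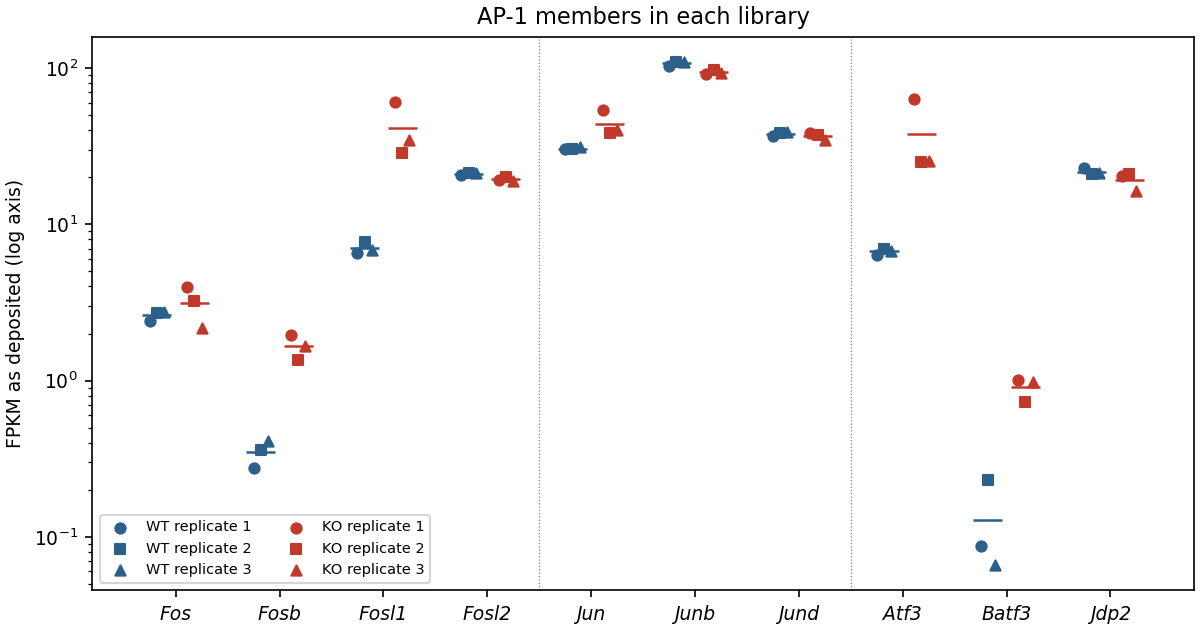
Deposited FPKM of each AP-1 gene in each library on a log axis, with WT-labelled libraries in blue, KO-labelled libraries in red, a marker shape per replicate number and a horizontal line at the mean of each label (n = 3). *Atf3*, *Fosl1*, *Fosb* and *Batf3* lie well apart between the labels, *Jun* less so, and KO-1 lies above the other KO-labelled libraries for *Atf3*, *Fosl1* and *Jun*.

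*Atf3* (ENSMUSG00000026628, chromosome 1 from 191170296 to 191218039 on the minus strand in GRCm38/mm10) had 63.3, 25.0 and 25.4 FPKM (fragments per kilobase of gene length, scaled to the library total) in KO-1, KO-2 and KO-3 and 6.38, 6.97 and 6.79 FPKM in WT-1, WT-2 and WT-3. Every KO-labelled library was above every WT-labelled library, and KO-1 stood 2.49 times above the other KO-labelled libraries. The WT-labelled libraries varied little, with a coefficient of variation of 4.78%, compared with 57.6% in the KO-labelled libraries. The log2 fold change was 2.46 (SE 0.35, adjusted p = 0.00149 from edgeR), a fold of 5.49. A rise of KO-1 over KO-2 and KO-3 as large as that of *Atf3* was rare, at the 99.57th percentile of the 14071 genes compared. Without KO-1 the log2 fold change of *Atf3* was 1.88, with an adjusted p of 6.6e-06 from edgeR. The summed endothelial markers were also highest in KO-1, and their part in the difference of *Atf3* was not tested.

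The promoter windows of *Atf3*, *Fosb*, *Jun* and *Fos* are shown as examples with motif matches, of which the first 3 genes rose and *Fos* did not pass the test. Each window holds the 250 bases before the RefSeq start of transcription in GRCm38.p6, read 5′ to 3′ on the strand of the gene. Capitals mark matches to the motifs named below. The windows are chr1:191183334-191183583 (minus strand) for *Atf3*, chr7:19310046-19310295 (minus strand) for *Fosb*, chr4:95052223-95052472 (minus strand) for *Jun*, and chr12:85473640-85473889 (plus strand) for *Fos*.
Atf3: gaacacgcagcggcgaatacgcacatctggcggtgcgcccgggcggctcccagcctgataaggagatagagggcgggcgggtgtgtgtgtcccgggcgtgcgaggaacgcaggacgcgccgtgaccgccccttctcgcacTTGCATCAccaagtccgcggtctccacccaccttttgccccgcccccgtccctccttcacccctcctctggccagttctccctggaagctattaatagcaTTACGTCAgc
Fosb: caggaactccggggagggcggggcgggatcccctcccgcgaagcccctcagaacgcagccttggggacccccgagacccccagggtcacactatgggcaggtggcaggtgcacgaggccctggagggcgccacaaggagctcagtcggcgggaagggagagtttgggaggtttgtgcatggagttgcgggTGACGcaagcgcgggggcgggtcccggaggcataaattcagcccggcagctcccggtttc
Jun: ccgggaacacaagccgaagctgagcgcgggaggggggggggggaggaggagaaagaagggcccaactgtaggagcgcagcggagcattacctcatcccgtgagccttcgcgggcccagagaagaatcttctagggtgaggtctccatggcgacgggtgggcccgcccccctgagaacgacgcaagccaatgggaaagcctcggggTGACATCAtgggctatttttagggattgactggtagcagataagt
Fos: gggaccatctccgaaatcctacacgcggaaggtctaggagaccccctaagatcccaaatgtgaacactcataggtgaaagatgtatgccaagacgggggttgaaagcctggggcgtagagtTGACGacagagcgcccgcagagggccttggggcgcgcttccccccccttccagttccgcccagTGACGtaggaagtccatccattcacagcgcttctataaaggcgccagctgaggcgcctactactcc

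Position -1 is the last base before the start. The *Atf3* window ends at the start of the shorter transcript of the gene, and the deposited interval extends upstream to a longer one. It held TTACGTCA, a variant of the cAMP response element, from -10 to -3, and TTGCATCA, the C/EBP-ATF response element, from -110 to -103. These letters, on either strand, were present in 0.445% and 0.792% of the 32817 RefSeq windows of the same length. The *Jun* window held TGACATCA, a variant AP-1 site, from -45 to -38, which 2.93% of all windows held. The half-site TGACG was found from -60 to -56 in *Fosb*, and from -129 to -125 and -66 to -62 in *Fos*. Among genes that were lower or not called, a *Jdp2* window also held the C/EBP-ATF response element, as its reverse complement TGATGCAA from -33 to -26, and a half-site from -114 to -110, and *Junb* held a half-site from -106 to -102. The window of *Batf3*, which rose, held none of the motifs named here, nor did those of *Fosl2* and *Jund*. The reverse complement of the half-site lies within TTACGTCA of *Atf3*, and 17.75% of all windows held the half-site on either strand. Neither TGAGTCA, held by 4.46% of all windows, nor TGACGTCA, held by 1.55%, was found in these 4 windows or in those of the other AP-1 genes that have a window. The motifs were chosen with the sequences at hand, and a match is a description of the letters only. Of the 10 genes, 9 are in the RefSeq table used, and *Fosl1*, which is not, was not scanned.

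*Fosl1* (ENSMUSG00000024912, chromosome 19 from 5447703 to 5455945), which encodes FRA-1, a FOS protein without the transactivation domain of FOS itself, had 60.7, 28.8 and 34.8 FPKM in KO-1, KO-2 and KO-3 and 6.54, 7.76 and 6.87 FPKM in WT-1, WT-2 and WT-3. All KO-labelled libraries were above all WT-labelled libraries, and KO-1 was again the highest. *Fosl1* had a log2 fold change of 2.51 (SE 0.26, adjusted p = 0.000315 from edgeR), a fold of 5.71, which was 2.15 on the log2 scale without KO-1 (adjusted p = 2.6e-05 from edgeR).

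*Fosb* (ENSMUSG00000003545, chromosome 7 from 19302721 to 19310045) encodes an activator with a truncated, long-lived splice form, which gene counts cannot separate from the full-length form. It was low in all libraries, at 1.95, 1.35 and 1.67 FPKM in KO-1, KO-2 and KO-3 against 0.277, 0.358 and 0.412 FPKM in WT-1, WT-2 and WT-3. These values rested on 67 to 96 counts in the KO-labelled and 15 to 22 counts in the WT-labelled libraries, and the labels did not overlap. On the log2 scale the fold change was 2.20 (SE 0.23, adjusted p = 0.000288 from edgeR), a fold of 4.60, and 0.97 with limma on log2(FPKM + 1). *Fosb* depended on KO-1 less than *Atf3* did, with a ratio of KO-1 to the other KO-labelled libraries of 1.29.

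*Fos* (ENSMUSG00000021250, chromosome 12 from 85473890 to 85477273), the founding member of the family, had 3.95, 3.22 and 2.18 FPKM in KO-1, KO-2 and KO-3 and 2.39, 2.69 and 2.74 FPKM in WT-1, WT-2 and WT-3. KO-3 was the lowest and KO-1 the highest of all 6 libraries, so that the labels overlapped. The log2 fold change was 0.21 (SE 0.20, adjusted p = 0.463 from edgeR), and it ran from 0.02 without KO-1 to 0.43 without KO-3 (adjusted p = 0.952 and 0.0735 from edgeR). *Fosl2* (ENSMUSG00000029135, chromosome 5 from 32135801 to 32157842), which encodes FRA-2, had 219, 231 and 217 CPM in KO-1, KO-2 and KO-3 and 242, 252 and 249 CPM in WT-1, WT-2 and WT-3. These small differences did not overlap between the labels. *Fosl2* had a log2 fold change of -0.15 (SE 0.05, adjusted p = 0.0358 from edgeR), but the call was lost without any one of 5 of the 6 libraries, all except KO-2 (adjusted p from 0.0555 to 0.1185 from edgeR), and the sign turned with marker scaling (0.23).

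Within the JUN subfamily, *Jun* (ENSMUSG00000052684, chromosome 4 from 95049034 to 95052222), the main partner of FOS proteins and of ATF3, rose from 30.1, 30.4 and 31.1 FPKM in WT-1, WT-2 and WT-3 to 54.2, 38.3 and 40.1 FPKM in KO-1, KO-2 and KO-3. All 3 KO-labelled libraries were above the WT-labelled libraries, with KO-1 the farthest. *Jun* had a log2 fold change of 0.50 (SE 0.12, adjusted p = 0.0146 from edgeR), a fold of 1.41, and 0.34 without KO-1 (adjusted p = 0.0038 from edgeR). The antisense gene *Junos* overlaps *Jun* on the opposite strand with 9 to 35 counts against 1387 to 2078 for *Jun*, and whether the counting used strand is not given in the sources used here.

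*Junb* (ENSMUSG00000052837, chromosome 8 from 84976909 to 84978748), a JUN protein that can restrain the activity of JUN, was the most abundant member per gene length, with 91.7, 96.6 and 93.4 FPKM in KO-1, KO-2 and KO-3 and 104, 109 and 110 FPKM in WT-1, WT-2 and WT-3. The labels did not overlap, with every KO-labelled library below every WT-labelled one. The log2 fold change was -0.23 (SE 0.05, adjusted p = 0.00898 from edgeR), which turned to 0.16 with marker scaling, where the median of all genes was 0.37. *Jund* (ENSMUSG00000071076, chromosome 8 from 70697739 to 70700616), the least inducible JUN gene, had 34.6 to 38.3 FPKM in the KO-labelled and 36.6 to 38.9 FPKM in the WT-labelled libraries. Its labels overlapped, and the log2 fold change was -0.09 (SE 0.06, adjusted p = 0.288 from edgeR), which turned to 0.30 with marker scaling and passed (adjusted p = 0.00486 from edgeR).

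*Batf3* (ENSMUSG00000026630, chromosome 1 from 191097847 to 191108945), known as a factor required for a subset of dendritic cells, was near the limit of detection in the WT-labelled libraries. It had 39, 31 and 48 counts in KO-1, KO-2 and KO-3 and 4, 11 and 3 counts in WT-1, WT-2 and WT-3, which correspond to 1.02, 0.732 and 0.981 FPKM and to 0.0868, 0.232 and 0.0660 FPKM. The labels did not overlap, and WT-2 was the highest of the WT-labelled libraries. *Batf3* had a log2 fold change of 2.76 (SE 0.40, adjusted p = 0.00161 from edgeR), with a range from 2.45 to 3.49 when each library was left out and a value of 0.76 with limma on log2(FPKM + 1), a scale that compresses low genes. *Jdp2* (ENSMUSG00000034271, chromosome 12 from 85599105 to 85639878) had 20.4, 21.1 and 16.4 FPKM in KO-1, KO-2 and KO-3 and 22.9, 21.0 and 21.3 FPKM in WT-1, WT-2 and WT-3. On the CPM scale the labels did not overlap, with the highest KO-labelled value at 62.6 and the lowest WT-labelled value at 63.5, whereas on the FPKM scale they did. The log2 fold change of *Jdp2* was -0.21 (SE 0.10, adjusted p = 0.149 from edgeR).

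**Figure D2:**
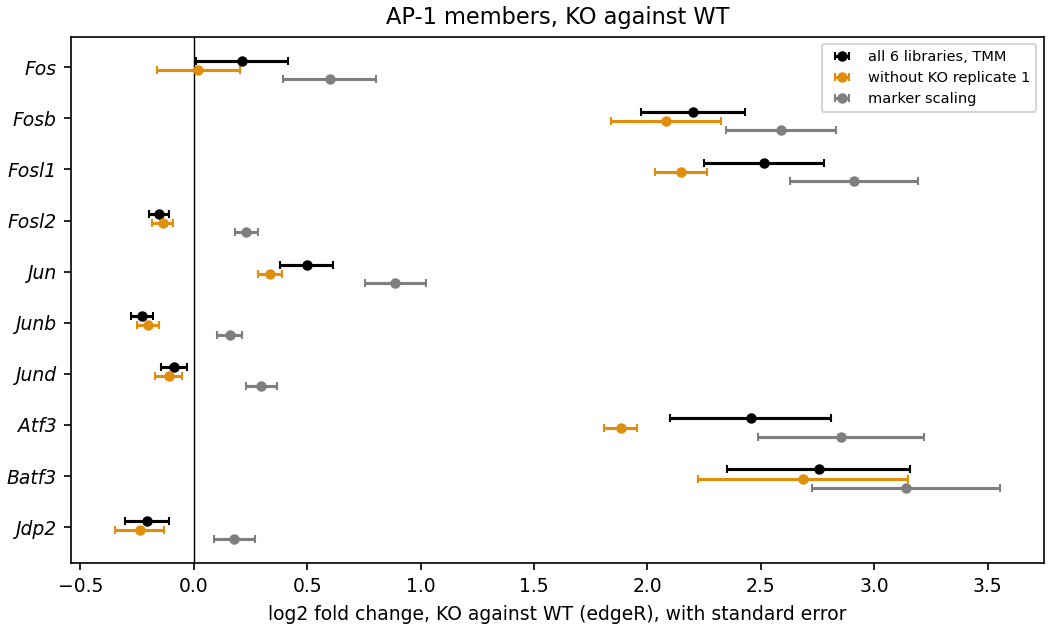
Log2 fold change of each AP-1 gene, KO-labelled against WT-labelled, with standard errors from edgeR, for all 6 libraries with TMM, without KO-1, and with scaling on cardiomyocyte and macrophage markers. *Atf3* moved from 2.46 to 1.88 without KO-1, and *Junb*, *Fosl2*, *Jund* and *Jdp2* were below 0 with TMM and above 0 with marker scaling.

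Because FPKM is corrected for gene length, the make-up of the family could be compared between genes. In the WT-labelled libraries the order of mean FPKM was *Junb*, *Jund*, *Jun*, *Jdp2*, *Fosl2*, *Fosl1*, *Atf3*, *Fos*, *Fosb* and *Batf3*. *Jdp2* and *Fosl2* overlapped, as did *Fosl1* and *Atf3*, and the other neighbours in this order did not. In the KO-labelled libraries *Junb* was still first, at 93.9 ± 2.47 FPKM (SD, n = 3). It was followed by *Jun* at 44.2 ± 8.70, *Fosl1* at 41.4 ± 17.0, *Atf3* at 37.9 ± 22.0 and *Jund* at 36.6 ± 1.90 FPKM, and neighbours among these 4 genes overlapped. *Fosl2* and *Jdp2* also overlapped each other, and *Fos*, *Fosb* and *Batf3* came last, without overlap between neighbours.

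The summed FPKM of the 10 genes was 355, 272 and 268 in KO-1, KO-2 and KO-3 and 230, 238 and 239 in WT-1, WT-2 and WT-3, without overlap. The FOS subfamily summed to 85.8, 53.4 and 57.6 FPKM in KO-1, KO-2 and KO-3 and to 29.8 to 32.2 FPKM in the WT-labelled libraries. The JUN subfamily overlapped between the labels, with 168.0 to 184.2 FPKM in the KO-labelled and 170.5 to 179.6 FPKM in the WT-labelled libraries. JUN transcripts therefore made up 51.9%, 63.2% and 62.6% of the sum in KO-1, KO-2 and KO-3, compared with 74.2% to 75.1% in the WT-labelled libraries. *Atf3* made up 17.8%, 9.18% and 9.47% compared with 2.78% to 2.93%, and *Fosl1* 17.1%, 10.6% and 12.95% compared with 2.85% to 3.26%. These shares share 1 denominator within a library, so that a rise of some members lowers the shares of the others. Such sums and shares were compared over the libraries only, and two-sided permutation, exact over the 6 libraries, gave p = 0.1 for each that did not overlap and p = 0.9 for the JUN sum.

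Ratios within a library do not depend on the scaling between libraries. *Fosl1* had 3.16, 1.44 and 1.84 times the FPKM of *Fosl2* in KO-1, KO-2 and KO-3, and 0.317 to 0.363 times in the WT-labelled libraries, so that the order of these FRA genes was inverted between the labels. *Atf3* had 1.17, 0.652 and 0.635 times the FPKM of *Jun* in KO-1, KO-2 and KO-3 and 0.212 to 0.230 times in the WT-labelled libraries. The ratio of *Jun* to *Junb* was 0.591, 0.397 and 0.429 in KO-1, KO-2 and KO-3 and 0.279 to 0.290 in the WT-labelled libraries. *Fosb* was at 0.418 to 0.764 of *Fos* in the KO-labelled and at 0.116 to 0.150 in the WT-labelled libraries. None of these ratios overlapped between the labels, and each gave an exact two-sided permutation p of 0.1, the smallest possible here.

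**Figure D3:**
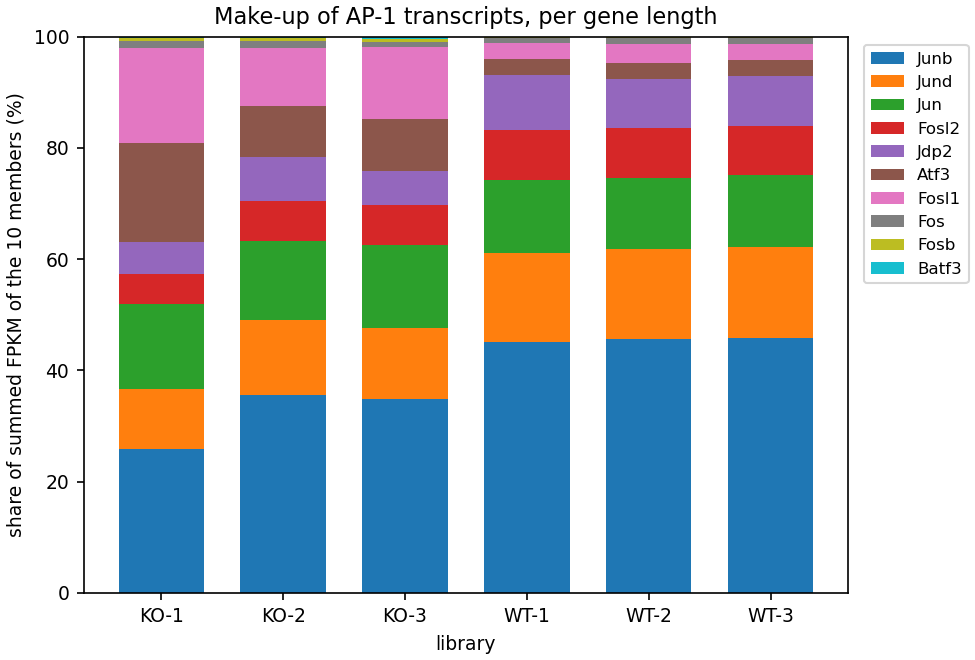
Share of each AP-1 gene in the summed FPKM of the 10 genes, in percent, as stacked bars per library. *Junb*, *Jund* and *Jun* filled 74.2% to 75.1% of the WT-labelled bars and 51.9% to 63.2% of the KO-labelled bars, where *Atf3* and *Fosl1* were wider.

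The likeness of other genes to *Atf3* was measured as the root mean square difference over the 6 libraries of log2 CPM centred on the mean of each gene, among 13420 genes with a mean CPM of at least 1. *Fosl1* was the nearest of all, at 0.167. It was followed by *Sele* (0.198), which encodes the endothelial adhesion molecule E-selectin, *Thbd* (0.208), which encodes the endothelial anticoagulant receptor thrombomodulin, *Nr1d1* (0.238), which encodes the circadian repressor REV-ERBα, and *Cass4* (0.239), which encodes a scaffold protein of the CAS family. *Sele* had 159, 90.2 and 97.6 CPM in KO-1, KO-2 and KO-3 against 20.2 to 24.3 CPM in the WT-labelled libraries. *Thbd* had 160, 80.3 and 91.6 CPM against 15.12 to 20.75 CPM. *Nr1d1* had 89.4, 51.2 and 50.0 CPM in KO-1, KO-2 and KO-3 against 14.95 to 15.61 CPM. Of the other AP-1 genes, *Fosb* ranked 38, *Batf3* 475, *Jun* 1237 and *Fos* 2638 by this measure. *Jund* ranked 7274, *Fosl2* 8838, *Jdp2* 9407 and *Junb* 9973. The measure takes in the difference between the labels as well as the height of KO-1, and it is a description over 6 libraries.

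**Figure D4:**
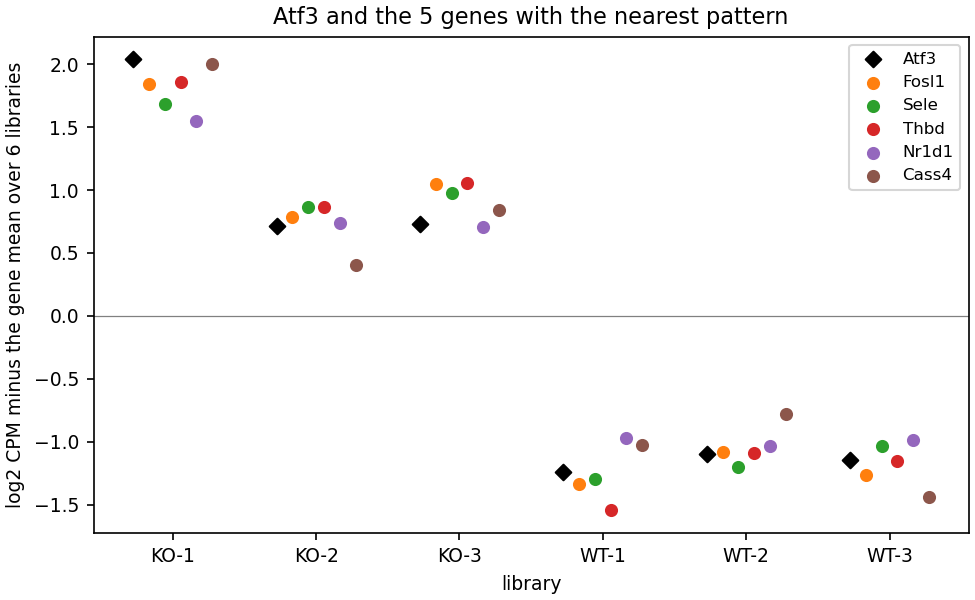
Log2 CPM minus the mean of each gene, per library, for *Atf3* and the 5 genes nearest to it. All 6 genes were above their mean in the KO-labelled libraries, highest in KO-1, and below it in the WT-labelled libraries.

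Some of these genes are neighbours on the genome. The start of *Batf3* is 120.2 kb from that of *Atf3*, and *Jdp2* and *Batf* start 125.2 and 212.8 kb from *Fos*. Within 250 kb of the *Atf3* interval, 11 of 20 listed genes could be tested, 7 were called higher and 0 lower by edgeR, where 17.7% of all genes were called higher and 12.5% lower. The 11 and the 7 both take in *Atf3* and *Batf3* themselves, already described above as higher. The comparison with all genes is therefore partly fixed in advance. DESeq2 and limma also called 0 lower, 1 was lower at an unadjusted p under 0.05 from edgeR, and without KO-2 1 was called lower. Besides *Atf3* and *Batf3*, *Nsl1*, a kinetochore gene, had a log2 fold change of 1.40 (SE 0.14, adjusted p = 0.000263 from edgeR), and *Ppp2r5a*, a regulatory subunit of protein phosphatase 2A, one of 0.63 (SE 0.07, adjusted p = 0.000368 from edgeR). These 4 genes passed the threshold whichever library was left out, although *Batf3* passed the expression filter only through the KO-labelled libraries. *Tatdn3* (0.51), *Tmem206* (0.41) and *Angel2* (0.25) did not: the count of genes called higher in the window was 5 without KO-1, 5 without KO-3, 4 without WT-1 and 5 without WT-2. *Vash2*, *Mfsd7b*, *Nenf* and *D730003I15Rik* were not called, with log2 fold changes from -0.35 to 0.04. Within 250 kb of *Fos* all 9 listed genes were tested, of which *Eif2b2* was called higher (0.28, adjusted p = 0.037 from edgeR) and *Tmed10* lower (-0.15, adjusted p = 0.0269 from edgeR, 0.23 with marker scaling). The call of *Eif2b2* was lost without any one of KO-1, KO-2, WT-1, WT-2 and WT-3 (adjusted p up to 0.1124 from edgeR). That of *Tmed10* was lost without any one of KO-1, KO-2, KO-3, WT-1 and WT-2 (adjusted p up to 0.0992 from edgeR). With marker scaling, which called 8374 of all 14084 genes higher, 7 of the 9 genes were higher and 0 lower, and with limma 2 were higher and 1 lower. *Batf*, a close relative of *Batf3*, had a log2 fold change of -0.54 (SE 0.19, adjusted p = 0.071 from edgeR) and overlapped between the labels.

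**Figure D5:**
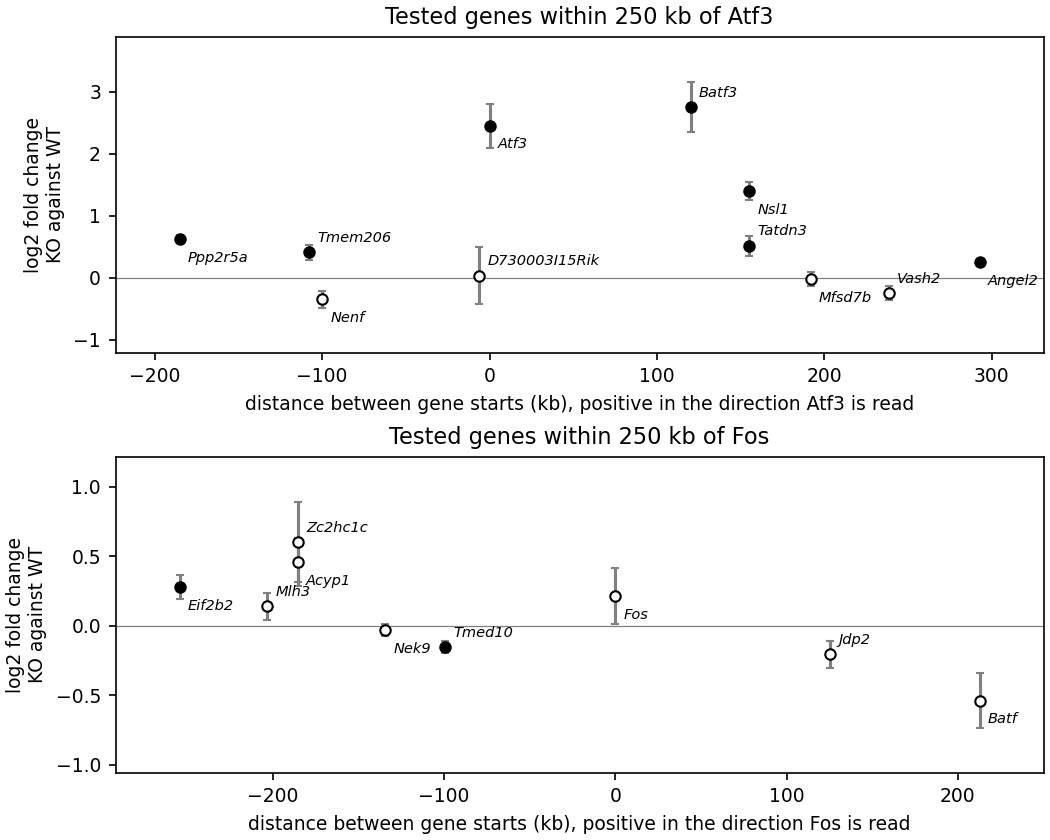
Log2 fold change with standard error of the tested genes near *Atf3* and near *Fos*, against the distance between gene starts in kb, with filled points for genes called at an adjusted p under 0.05 from edgeR. Around *Atf3* 7 of 11 points are filled and above 0, *Atf3* and *Batf3* themselves among them, and around *Fos* 2 of 9 are filled.

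The kinases and feedback regulators upstream of AP-1 were described by gene lists. Of 21 MAP kinase pathway genes tested, 5 were higher and 4 lower, where 17.7% of all genes were called higher and 12.5% lower, and their median log2 fold change was -0.02. With marker scaling, which called 8374 of all 14084 genes higher and 57 lower, 16 were higher and 0 lower, and with library size only 1 was lower. *Map2k6*, an activating kinase of p38, had 4.64 to 6.47 CPM in the KO-labelled and 0.995 to 1.54 CPM in the WT-labelled libraries (log2 fold change 2.23, SE 0.24, adjusted p = 0.000368 from edgeR). *Mapk11*, which encodes p38β, was higher as well (1.19, SE 0.11, adjusted p = 0.000178 from edgeR). *Map3k5*, which encodes the stress kinase ASK1, was lower (-0.73, adjusted p = 0.0139 from edgeR), as was *Map2k7*, an activating kinase of JNK (-0.41, adjusted p = 0.0418 from edgeR), and neither passed with marker scaling (adjusted p = 0.126 and 0.884). The 4 lower calls fell to 1 without KO-1, KO-2, KO-3 or WT-2 and to 2 without WT-1, and the 5 higher calls fell to 3 without KO-1, WT-1 or WT-3. Of 16 feedback genes of these pathways, 8 were higher and 2 lower (17.7% and 12.5% of all genes), with a median of 0.31, and with marker scaling 12 were higher and 0 lower, with a median of 0.70. *Dusp2*, a nuclear phosphatase of MAP kinases, had 17.6, 10.9 and 11.7 CPM in KO-1, KO-2 and KO-3 against 0.614 to 1.05 CPM in the WT-labelled libraries (log2 fold change 3.98, SE 0.28, adjusted p = 4e-05 from edgeR), and it passed the expression filter only through the KO-labelled libraries. *Dusp1*, which inactivates p38 and JNK, had 41.1 to 74.1 CPM in the KO-labelled and 19.4 to 23.5 CPM in the WT-labelled libraries (log2 fold change 1.31, SE 0.21, adjusted p = 0.00228 from edgeR). *Spry1*, a feedback inhibitor of receptor tyrosine kinases, and *Zfp36l1*, which promotes decay of AU-rich mRNA, were lower (-0.49 and -0.30, adjusted p = 0.00152 and 0.00246 from edgeR), and with marker scaling *Spry1* was at -0.11 and *Zfp36l1* turned to 0.09. The 8 higher calls fell to 5 without WT-1 or WT-2.

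Of 9 SRF, ternary complex and MEF2 factors, which drive *Fos* and *Jun* transcription, *Elk3* (0.49, adjusted p = 0.000367 from edgeR) and *Mef2a* (0.30, adjusted p = 0.0128 from edgeR) were higher and 0 were lower by edgeR, DESeq2 or limma, with 1 lower at an unadjusted p under 0.05 from edgeR. Over all genes, 17.7% were called higher and 12.5% lower by edgeR. Of the 5 genes for turnover of JUN, 0 were called by these tools with all libraries and their usual scaling and 1 was lower at an unadjusted p under 0.05 from edgeR, with log2 fold changes from -0.33 to 0.07. By edgeR 1 was lower without WT-2 and 3 were higher with marker scaling, as were 8 of the 9 factors above and 8374 of all 14084 genes. Of 23 other basic leucine zipper genes, 4 were higher and 4 lower (17.7% and 12.5% of all genes), with a median of 0.00, and with marker scaling 15 were higher and 0 lower, with a median of 0.38. *Creb1*, which encodes the cAMP-responsive factor CREB, was higher (0.31, SE 0.06, adjusted p = 0.00749 from edgeR). *Maf* was lower (-0.55, SE 0.07, adjusted p = 0.000838 from edgeR), as was *Cebpa*, a factor of the C/EBP family (-0.70, SE 0.18, adjusted p = 0.018 from edgeR). With marker scaling *Maf* and *Cebpa* were at -0.17 and -0.32 and no longer passed.

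Of 22 textbook AP-1 target genes tested, 7 were higher and 5 lower (17.7% and 12.5% of all genes), with a median of 0.07. With marker scaling, which called 8374 of all 14084 genes higher, 13 were higher and 0 lower, with a median of 0.46. *Plau*, which encodes the urokinase plasminogen activator, had 450, 216 and 266 CPM in KO-1, KO-2 and KO-3 against 20.8 to 21.8 CPM in the WT-labelled libraries (log2 fold change 3.87, SE 0.26, adjusted p = 3.4e-05 from edgeR). *Mmp13*, a collagenase, had 86.0, 48.6 and 49.3 CPM in KO-1, KO-2 and KO-3 against 6.48 to 7.82 CPM (log2 fold change 3.14, SE 0.24, adjusted p = 6.2e-05 from edgeR). *Mmp12*, the macrophage elastase, and *Timp1*, an inhibitor of matrix metalloproteinases, were lower (-0.46 and -0.44, adjusted p = 0.00318 and 0.00116 from edgeR), and neither passed with marker scaling, at -0.07 and -0.05. Both *Plau* and *Mmp13* were highest in KO-1, as the endothelial marker sum was, and the part of endothelial RNA in their difference was not tested.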

How the data were processed

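RNA-seq libraries were stranded and made from oligo(dT)-enriched RNA. HISAT2 was used by the authors to map reads to mm10. The submitters' processing notes also name edgeR and the build GRCm38.p4, without a role. The counting tool, its strand setting and the annotation release are not given in the sources used here. The deposited counts are whole numbers per gene without normalization. The deposited FPKM are these counts per gene length and library total: the gene length that both values imply was equal across libraries within a share of 4.35e-05, over 12244 genes.

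Counts were tested on all 6 libraries with R 4.3.3 and edgeR 4.0.16 (TMM after filterByExpr, quasi-likelihood F test, Benjamini-Hochberg adjustment, threshold 0.05, no covariate), which left 14084 of the 20854 genes with any count, and 5833 had an unadjusted p under 0.05. The standard error is the size of the log2 fold change divided by the square root of the F statistic. The biological coefficient of variation was 10.9%. A count of 0 allows up to 3 counts, or 0.196 to 0.249 CPM. These floors cover counting error only. Pairs of libraries of 1 label differed in 22.4% to 32.2% of genes at an unadjusted p under 0.05, more than sampling noise. On simulated data for this comparison, edgeR called 178 of 200 genes changed by a fold of 2 among 13955 genes (89.0%), and 3.78% of its calls were false. Only these 200 genes were changed, evenly up and down, and no library was set apart. In the data 30.2% of genes were called, so the simulated false rate may not carry over.

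The members and lists were chosen with earlier results of these data known. Named are all 10 members, *Kdm5b*, *Batf*, up to 2 called genes with the largest and 2 with the smallest log2 fold change per list among genes with a mean CPM of at least 1, the 5 genes most like *Atf3*, and tested genes within 250 kb of *Atf3* and *Fos*. A gene that this rule names is not reported here. The alternatives tried were DESeq2 1.42.0, limma 3.58.1 on log2(FPKM + 0.1) and log2(FPKM + 1), scaling by library size, upper quartile, RLE or markers (the median ratio of cardiomyocyte and macrophage markers set to 1), testing every gene with a count or those with a mean CPM of 1, a block for the replicate number, and leaving out each library. Promoter sequences are from RefSeq (GRCm38.p6). Figures were drawn with matplotlib 3.10.9.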

Additional observations from a re-analysis of the deposited data

How the results depend on the processing

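Of 160 values of the AP-1 genes under alternatives, 145 kept their direction and their side of the threshold, among them all 16 each of *Atf3*, *Fosl1*, *Fosb*, *Batf3* and *Jun*. Because *Batf3* passed the expression filter only through the KO-labelled libraries, where it was high, its 16 values are no independent support. The adjusted p of *Atf3* ran from 1.2e-06 to 0.00932 and that of *Jun* from 0.000348 to 0.0487. The log2 fold change of *Fosl2* no longer passed with no filter (-0.15, adjusted p = 0.0545 from edgeR), with DESeq2 (-0.15, adjusted p = 0.0605), with library size only (-0.12), with limma on log2(FPKM + 1) (-0.11) or on log2(FPKM + 0.1) (-0.12), and ran from -0.17 to -0.13 when each library was left out. With marker scaling, which raises the median over all genes by 0.39, *Fosl2*, *Junb*, *Jund*, *Jdp2* and *Kdm5b* were at 0.23, 0.16, 0.30, 0.18 and 0.17, and *Fos* passed at 0.60 (adjusted p = 0.031 from edgeR). The count of AP-1 genes called higher was then 9 and of those called lower 0. The count called lower was 1 with no filter, DESeq2, library size only and both limma settings, and 1 to 2 when each library was left out. Over all genes, marker scaling gave 8374 higher and 57 lower. The count of all genes called lower ran from 1131 (without KO-3) to 1614 when each library was left out. The share of higher among all calls was 58.6%, compared with 49.4% with the upper quartile and 99.3% with marker scaling. Counts of *Batf3* and *Fosb* in the WT-labelled libraries limit their fold changes. Deviations of same-numbered libraries from their label mean correlated at 0.048, 0.015 and 0.056, each the highest for its library, and the numbers are not said to mark a shared litter or day. With the replicate number as a block, 2316 genes were called higher and 1591 lower, with 5 and 2 AP-1 genes. Medians of the lists of MAP kinase pathway genes and other basic leucine zipper genes, which were within 0.1 of 0, changed sign under some alternatives, and those of the AP-1 target genes and of the integrated stress response genes were both 0.01 without KO-1. The causes of these changes were not tested.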

Other observations

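Other immediate early genes were read beside the AP-1 genes, since many of them respond to the same stimuli. Of 19 tested, 7 were higher and 3 lower in the KO-labelled libraries (17.7% and 12.5% of all genes). With marker scaling, which called 8374 of all 14084 genes higher, 11 were higher and 0 lower. Their median log2 fold change was 0.08, which turned to -0.01 without KO-3 or WT-1 and to -0.08 with DESeq2 or with no filter. *Arc* had 7.12, 8.63 and 9.93 CPM in KO-1, KO-2 and KO-3 against 0.341 to 1.07 CPM in the WT-labelled libraries (3.56, SE 0.31, adjusted p = 0.000109 from edgeR), and here KO-1 was the lowest of the KO-labelled libraries. *Arc* passed the expression filter only through the KO-labelled libraries, where it was high. *Nr4a1*, a nuclear receptor induced by many stimuli, had 15.2 to 15.9 CPM against 5.46 to 6.21 CPM (1.45, SE 0.11, adjusted p = 5.6e-05 from edgeR). *Egr1*, a classical early growth response gene, and *Cyr61*, which encodes the matricellular protein CCN1, were lower (-0.46 and -0.40, adjusted p = 0.00241 and 0.00391 from edgeR), and neither passed with marker scaling, at -0.07 and -0.02.

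Genes of the integrated stress response, a pathway that induces *Atf3* through ATF4, were 4 higher and 1 lower of 12 tested (17.7% and 12.5% of all genes), and 11 higher and 0 lower with marker scaling. *Ppp1r15a*, a regulatory subunit of the phosphatase that ends this response, was at 0.54 (SE 0.14, adjusted p = 0.0228 from edgeR) and *Slc7a11*, a cystine transporter, at 0.52 (SE 0.08, adjusted p = 0.00237 from edgeR), while *Atf5* was lower (-0.47, SE 0.05, adjusted p = 0.000288 from edgeR) and no longer passed with marker scaling (-0.09, adjusted p = 0.1415). The 4 higher calls fell to 2 without WT-3. Of 12 heat shock genes, which are induced by stress to proteins, *Hsph1* was higher (0.54, adjusted p = 0.0017 from edgeR) and *Hspb1* lower (-0.47, adjusted p = 0.00803 from edgeR), where 17.7% of all genes were called higher and 12.5% lower. The median of the 12 genes was -0.10. With marker scaling *Hspb1* was at -0.09 (adjusted p = 0.459 from edgeR) and the median at 0.29, with 8 of the 12 genes higher and 0 lower. That scaling called 8374 of all 14084 genes higher. Lists of lymphocyte, mast cell and erythroid markers had no gene that passed the expression filter, the neutrophil list of 7 genes summed to 7.20 to 10.15 CPM in the KO-labelled and 3.21 to 3.91 CPM in the WT-labelled libraries, the mural list of 7 to 203 to 255 against 290 to 329 CPM, and the mesothelial list of 6 to 390 to 439 against 518 to 531 CPM.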
